A study of Mus musculus with 18 samples.

Results

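BMAL1, the clock transcription factor that pairs with CLOCK on E-box DNA, had binding sites at all 9 examined genes of the hypoxia-inducible factor (HIF) pathway: Hif1a, Epas1, Arnt, Egln1, Egln3, Vhl, Vegfa, Ndrg1 and Bnip3. A site counted for a gene when the centre of a BMAL1 peak lay between the gene's ends or at most 10 kb beyond either of them. In this way 30.7% of all protein-coding genes had a site in at least 1 tissue, and the sites counted for Vhl all lie nearer to another gene, Irak2. By this rule the genes held 21 peaks, of which 9 came from the liver list, 8 from the kidney list and 4 from the heart list. Overlapping peaks of different tissues were merged into regions, and the 21 peaks formed 15 of the 9005 regions in the series. The sites fell into 2 kinds. Bnip3 and Hif1a each carried 1 region just upstream of a start site that was found in all 3 tissues and ranked high in each list. Most other regions were found in 1 tissue, at lower ranks, with a kidney peak next to Ndrg1 as the exception in rank. Such regions are the usual case: 11 of the 15 were found in 1 tissue, and so were 77.9% of all regions at protein-coding genes.

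The peaks came from chromatin immunoprecipitation and sequencing (ChIP-seq) of liver, kidney and heart from wild-type C57BL/6 mice aged 3 to 6 months. All animals were kept in cycles of 12 h light and 12 h dark with free access to food, and tissues were taken at ZT06, 6 h after lights on. The antibody was raised in chicken against the N-terminal domain of mouse BMAL1, and each tissue had 3 ChIP and 3 input libraries, 18 in all, with the 3 tissues coming from the same 3 mice. The deposited list of a tissue was made from all its ChIP and input libraries together, so a peak has 1 score per tissue, no error between animals and no known read depth. One label field calls the heart input libraries kidney input, while their titles and tissue field say heart; they were kept as heart, and whether the heart list was affected was not tested. No RNA was measured, so nothing below is a level of expression, and whole tissue does not tell which cells carried a site.

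Cells adjust to low oxygen mainly through HIF. An alpha subunit, encoded by Hif1a or Epas1 (HIF-2alpha), pairs with the beta subunit ARNT, a bHLH-PAS protein related to BMAL1, and the pair binds hypoxia response elements. In oxygen, prolyl hydroxylases such as EGLN1 and EGLN3 mark the alpha subunits, VHL recognises the mark, and the subunits are degraded. The core letters of a hypoxia response element are ACGTG or GCGTG, and the palindromic E-box CACGTG contains the first of these.

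Coordinates are those of the lists, counted from 1, on mm10, the build in the submitters' processing notes. Sequences and start sites are from RefSeq, build GRCm38.p6, where a window of 300 bases around each start site (250 before, 50 after) was given for 7 of the 9 genes. The bases shared by the liver, kidney and heart peaks at Bnip3 and at Hif1a, and the bases of the kidney peak at Egln1, all lie upstream of the start site. They are shown because these 3 are the genes with a peak centre inside such a window. The Bnip3 stretch is chr7:138909519-138909698, the Hif1a stretch chr12:73907657-73907835 and the Egln1 stretch chr8:124949262-124949449. Each is written 5′ to 3′ in the direction of its gene, on the minus, plus and minus strand in that order. Capitals mark the palindromic E-box CACGTG at Bnip3 and Hif1a, and the hypoxia element core ACGTG at Egln1. Other hypoxia element cores in these stretches are left in small letters.
Bnip3: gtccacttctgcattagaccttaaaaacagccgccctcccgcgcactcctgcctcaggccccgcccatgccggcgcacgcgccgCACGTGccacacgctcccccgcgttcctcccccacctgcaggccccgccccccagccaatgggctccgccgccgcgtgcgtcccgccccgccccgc
Hif1a: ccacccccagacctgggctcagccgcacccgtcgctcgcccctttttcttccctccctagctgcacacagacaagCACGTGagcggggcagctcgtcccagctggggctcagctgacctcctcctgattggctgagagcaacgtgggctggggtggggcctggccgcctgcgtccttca
Egln1: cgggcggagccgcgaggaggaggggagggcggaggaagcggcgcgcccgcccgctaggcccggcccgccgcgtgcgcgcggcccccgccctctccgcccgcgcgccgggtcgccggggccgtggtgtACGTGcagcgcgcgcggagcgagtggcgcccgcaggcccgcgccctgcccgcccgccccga

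At Bnip3, which encodes a mitochondrial protein of mitophagy and cell death that HIF induces, the 1 region lay upstream of the start site in every tissue. The liver peak (chr7:138909475-138909716) had a score of 218 and was number 33 of the 4813 liver peaks. The kidney peak (chr7:138909519-138909706) scored 169 and was number 42 of 4034. In heart (chr7:138909501-138909698) the score was 172, number 34 of 2519. The site stood within the top 1.35% of every list, with liver at 0.686%, kidney at 1.04% and heart at 1.35%. The scores are whole numbers on a scale that the sources used here do not give, so only ranks within a list are read. The 3 peak centres lay 89, 106 and 93 bp upstream of the start site in liver, kidney and heart, at most 17 bp from one another. The window held 1 CACGTG, whose first base in the gene's direction is 108 bp upstream, with its middle at most 16, 1 and 12 bp from the liver, kidney and heart centres. It also held GCGTG at 3 places, all inside the 3 peaks. Pseudogenes Gm18258 and Gm9358 lie within 10 kb as well, and Bnip3 was the nearest protein-coding gene.

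Hif1a, the gene of the HIF-1 alpha subunit itself, had the same arrangement at somewhat lower ranks. Its liver peak (chr12:73907621-73907862) scored 145 and was number 167 of the liver list, or 3.47%. In kidney (chr12:73907648-73907835) the score was 137, number 89 or 2.21%. The heart peak (chr12:73907657-73907854) scored 127, number 77 or 3.06%. The liver and kidney centres coincided and the heart centre lay 14 bp away. All 3 centres were upstream of the RefSeq start site used here, by 126 bp in liver and kidney and 112 bp in heart. The RefSeq span of Hif1a begins 6.42 kb before the liver centre, so this region is inside the gene as annotated and also directly before a start site. One CACGTG lay in the window, its middle at most 7 bp from the liver and kidney centres and 21 bp from the heart centre. One ACGTG apart from the E-box was found 70 bp upstream of the start site, within all 3 peaks, and no GCGTG.

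These letters were common in bound windows generally. Over all 32851 RefSeq start windows, searched on both strands, 7.15% held CACGTG, 19.6% ACGTG and 32.4% GCGTG. The E-box share was 58.3% in the 230 windows that held a peak centre of a region found in all tissues, and 5.62% in the 31228 windows with no peak centre. Of the same 230 windows, 73.5% held ACGTG and 74.3% GCGTG, against 17.9% and 30.5% with no peak centre. Windows with a kidney peak centre, as at Egln1, held ACGTG in 57.3% and GCGTG in 71.4%. An E-box counts as ACGTG in these shares. The windows with a peak were also richer in G and C, with a median GC content of 65.3% in liver, 66.7% in kidney and 68.7% in heart against 52.7% over all windows, and the part of GC content in these shares was not tested. Of the other members, the windows of Arnt, Egln1, Egln3, Vhl and Vegfa (2 windows) held no CACGTG. Among these, Egln1 alone had a peak centre inside its window. The Arnt window covers only part of its heart peak, and the windows of Egln3, Vhl and Vegfa cover none of their peaks. The letters of these windows therefore do not describe those peaks, whose full sequences were not analysed here. A match of letters is a description, not a shown binding site.

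**Figure D1:**
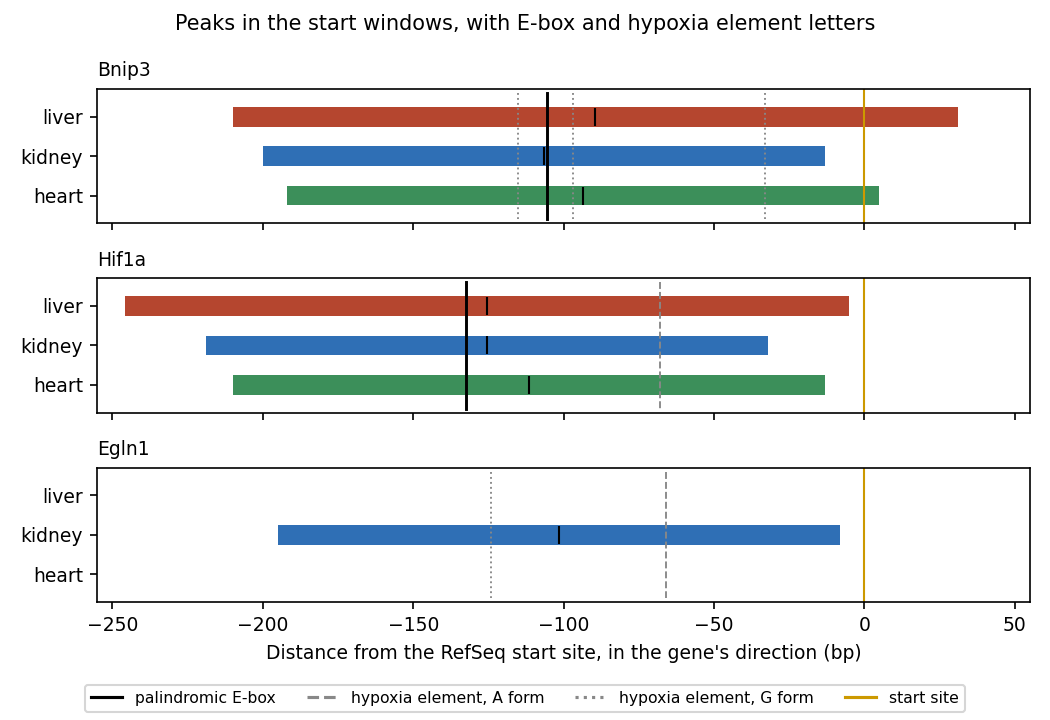
Peaks at Bnip3, Hif1a and Egln1 in the window from 250 bp before to 50 bp after the RefSeq start site (x axis, bp, in the gene's direction). Bars are peaks, coloured by tissue, with a short black tick at the centre; the solid black line marks the palindromic E-box and the broken grey lines the hypoxia element cores. At Bnip3 and Hif1a the E-box runs through the peaks of all 3 tissues, while Egln1 has a kidney peak and no palindromic E-box.

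Epas1, the gene of the second alpha subunit and a regulator of erythropoietin and of blood vessels, differed from Hif1a in having no region found in more than 1 tissue. Its 3 regions lay deep inside the 79.5 kb gene. The 2 liver peaks were at chr17:86765820-86766061 (score 43, number 2127, 44.2%) and chr17:86776606-86776847 (score 68, number 1060, 22.0%). The kidney peak between them, at chr17:86769963-86770150, scored 22 and was number 2591 of its list, at 64.2%. Its centre lay 4.12 kb from the nearer liver centre and 6.67 kb from the other, so liver and kidney peaks at Epas1 were at separate sites. The sites were 12.1 to 22.9 kb from the gene end of lower coordinate, and the heart list had no Epas1 peak.

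Arnt, the gene of the shared beta subunit, had 1 peak, in heart alone (chr3:95434381-95434578). It scored 30 and was number 970 of 2519, at 38.5%, with its centre 89 bp downstream of the start site. It ranked well below the heart peaks of Hif1a and Bnip3. The pseudogene Gm4349 also lies within 10 kb.

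The 2 hydroxylase genes had peaks in different tissues, 1 in kidney for Egln1 and 1 each in liver and heart for Egln3. At Egln1, the main oxygen sensor of the pathway, the only peak was in kidney, 101 bp upstream of the start site, with a score of 15 where the lowest in the list is 14. It was number 3635 of 4034, at 90.1%. The gene Gm46060 also lies within 10 kb of this peak. The printed Egln1 stretch is 86.2% G and C. Besides the marked ACGTG it holds 1 GCGTG, their middles at most 36 and 23 bp from the kidney centre. Egln3, a hydroxylase that HIF itself induces, had a liver peak inside the gene (chr12:54191229-54191470, score 28, number 3377, 70.2%), 12.5 kb downstream of the start site. Its heart peak (chr12:54203323-54203520, score 29, number 1014, 40.3%) lay 453 bp downstream of the start site, and the 2 centres were 12.1 kb apart. Egln3 and Epas1 were thus the 2 of 6 members with peaks in more than 1 tissue but none at a shared site. Among the 2772 protein-coding genes with peaks in 2 or 3 lists, 24.6% had no shared site.

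Vhl, the gene of the ubiquitin ligase subunit that binds hydroxylated HIF, met the rule only through peaks that lie closer to a neighbour. One region was common to liver (chr6:113639333-113639574, score 44, number 2062, 42.8%) and kidney (chr6:113639342-113639529, score 36, number 1408, 34.9%). A second peak was in kidney only (chr6:113638306-113638493, score 27, number 2045, 50.7%), with its centre 1.04 kb from that of the first kidney peak. The liver centre lay 7.82 kb beyond the upper end of Vhl and inside Irak2, which encodes a kinase of innate immune signalling. The nearest protein-coding gene was Irak2 for all 3 peaks. No peak lay inside Vhl or at its start site.

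Vegfa, the gene of the main growth factor of blood vessels, had 2 peaks, both in liver alone. One lay 844 bp beyond the lower end of the gene (chr17:46016029-46016270, score 40, number 2345, 48.7%). The other was inside the gene, 1.79 kb downstream of a start site (chr17:46030470-46030711, score 36, number 2621, 54.5%). Both were near the middle of the liver list. Higher-ranked peaks lay farther out than the rule allows. A liver peak 12.6 kb from the gene (chr17:46004246-46004487) scored 102 and was number 443, and a region 19.2 kb away was number 251 in liver (score 125) and number 723 in heart (score 37). Vegfa was the nearest protein-coding gene to both. Over all 9 genes, the farthest peak within the rule was the 7.82 kb one in Irak2, and the nearest one past it was a liver peak 10.3 kb from Bnip3 (score 71, number 976). From 10 to 50 kb there were 11 peaks at 4 of the genes, some of them nearest to other genes. The share of all protein-coding genes with a peak at that distance was not computed. The count therefore cannot be called high or low.

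Ndrg1, a stress-responsive gene induced by hypoxia and by growth arrest, had a high-ranked peak in 1 list only. A kidney peak (chr15:66969684-66969871) scored 117 and was number 132 of 4034, at 3.27%, and overlapped no liver or heart peak. Its score was the highest of the 2327 peaks found in kidney only, equalled by 1 other. Its centre lay 136 bp beyond the upper end of Ndrg1, inside the long non-coding RNA gene Gm2895. A second region, 789 bp inside the same end in kidney, was common to kidney (chr15:66968759-66968946, score 53, number 758, 18.8%) and liver (chr15:66968764-66969005, score 49, number 1804, 37.5%). The 2 kidney centres were 925 bp apart. So liver had a peak at the lower-scoring of the 2 kidney sites and none at the higher-scoring one, and heart had none at either. With 1 list per tissue this difference has no replicate check and no test.

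**Figure D2:**
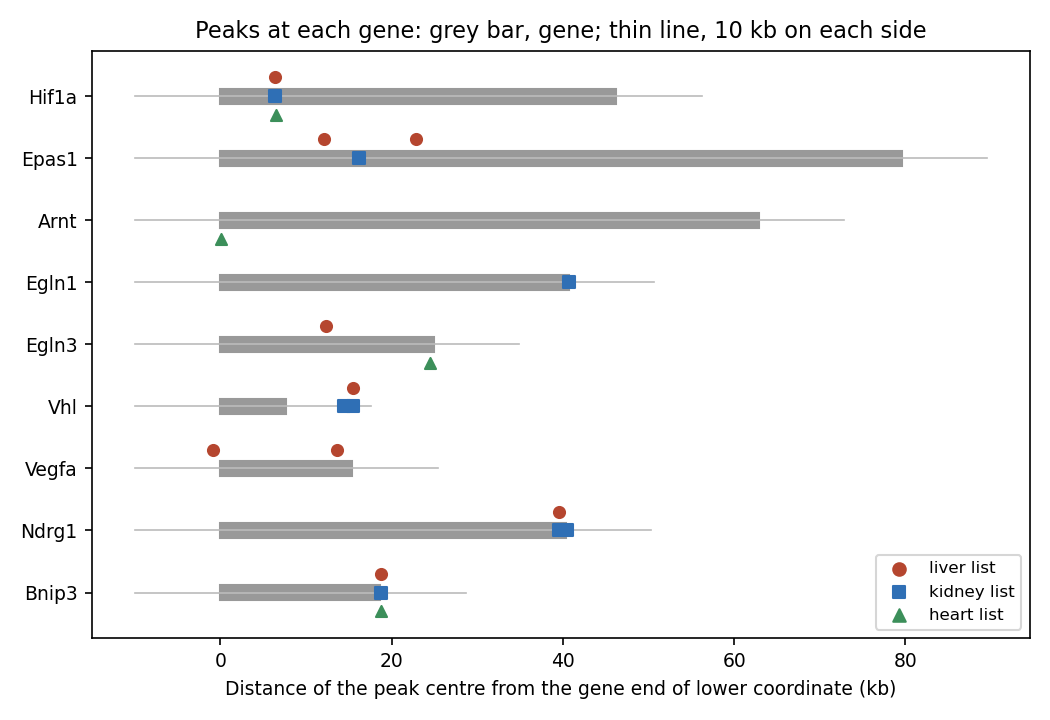
Position of each peak centre relative to its gene. The x axis is the distance from the gene end of lower coordinate (kb), grey bars are the RefSeq gene spans, thin lines the 10 kb on each side, and symbols the peaks of each list. The 3 peaks of Hif1a and of Bnip3 stack at 1 place, those of Epas1 and Egln3 lie apart, and the peaks of Vhl lie beyond the gene.

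**Figure D3:**
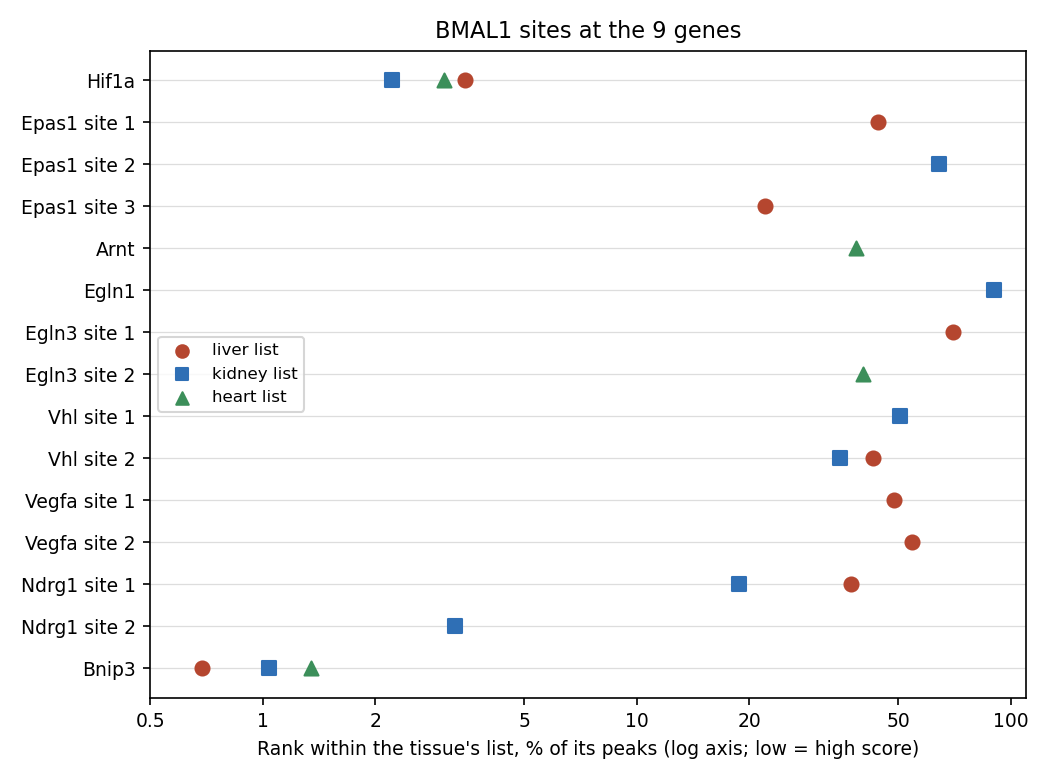
Rank of each peak within its tissue's list, in percent of the list (log axis, low means a high score), for the 15 regions. Bnip3, Hif1a and the kidney peak at Ndrg1 (site 2) lie below 5%, and all other peaks lie at 18.8% or above.

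Between tissues, a liver peak was found at 7 of the 9 genes, a kidney peak at 6 and a heart peak at 4. Over 21887 protein-coding genes the same rule gave 18.1% for liver, 18.0% for kidney and 11.5% for heart. A peak in at least 1 list was found at 9 of 9 genes against 30.7% of all protein-coding genes. All 3 lists had a peak at 2 genes (4.35% of all genes), and a region found in all 3 tissues lay at the same 2 (3.09%). The members are longer than usual, with a median span of 40.3 kb against 17.2 kb. Among the 12028 protein-coding genes whose length lies between those of the shortest and longest members, a set whose median span of 23.1 kb is still below that of the members, 20.1% had a liver peak, 19.7% a kidney peak and 12.1% a heart peak. Since the genes were chosen with earlier results of these data known, these counts are given as a description with no test.

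Close to start sites the counts were smaller. Of the 7 members with a RefSeq window, Bnip3, Hif1a and Egln1 had a peak centre inside it in at least 1 list, against 7.54% of 17492 protein-coding genes. Bnip3 and Hif1a had one in all 3 lists, against 0.949%. Epas1 and Ndrg1 were not among the genes with a window, so the kidney peak next to Ndrg1 could not count. The window ends 50 bp after the start site, so the Arnt heart peak, centred 89 bp downstream, did not count either.

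The ranks of the member peaks spread widely. Their median was 42.8% in liver (9 peaks), 26.8% in kidney (8) and 20.8% in heart (4), where all peaks at protein-coding genes had medians of 45.8%, 46.5% and 44.6%. Without the 2 Vhl peaks, which lie nearer to Irak2, the kidney median was 11.0%. Of the 15 regions, 11 were found in 1 tissue, 2 in liver and kidney and 2 in all tissues. Of the 7409 regions at protein-coding genes, 77.9% were found in 1 tissue and 6.44% in all.

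**Figure D4:**
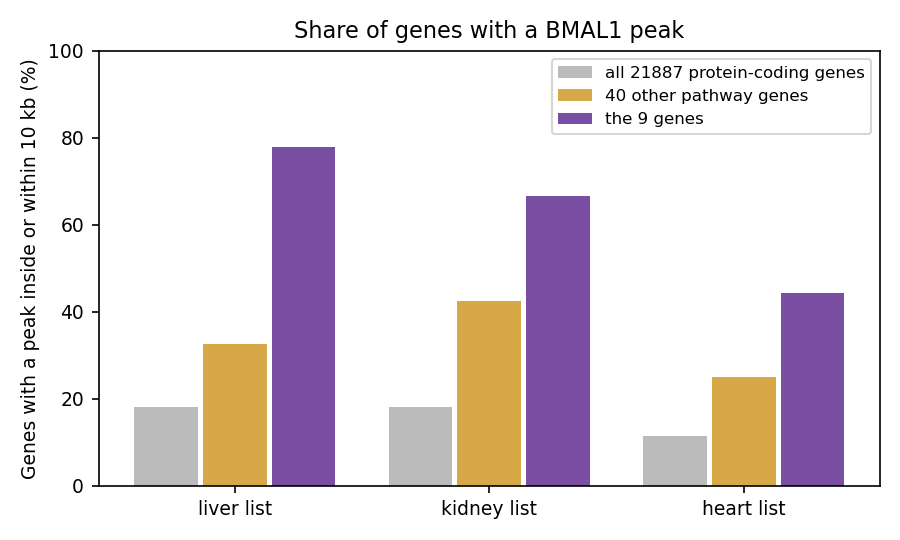
Share of genes (y axis, %) with a peak between their ends or within 10 kb, in each list, for all protein-coding genes, the 40 other pathway genes and the 9 genes. In each list the bar of the 9 genes (77.8, 66.7 and 44.4%) is the highest and that of all genes the lowest.

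The rest of the pathway was covered by a list of 40 genes for HIF partners, degradation factors, coactivators and targets. A liver peak lay at 13 of them (32.5%), a kidney peak at 17 (42.5%) and a heart peak at 10 (25%), to be read against the 18.1%, 18.0% and 11.5% above. Peaks in all 3 lists were found at 6 genes, against 4.35% of all protein-coding genes, and a region found in all tissues at 5 of these, against 3.09%: Bhlhe40, Pfkfb3, Egln2, Ldha and Cited2. Bhlhe40, a HIF-induced repressor that also acts in the clock, had 3 such regions, the best of them at numbers 14, 17 and 11 in liver, kidney and heart. That region lay 1.15 to 1.17 kb beyond the lower end of Bhlhe40 and inside another gene, 0610040F04Rik. Bhlhe40 was its nearest protein-coding gene. Pfkfb3 makes the activator of the glycolytic enzyme phosphofructokinase. Its best region, inside the gene, was number 41 in liver, 30 in kidney and 20 in heart (scores 207, 185 and 204). Bhlhe40 thus ranked above Bnip3 in every list, and Pfkfb3 did so in kidney and heart.

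Egln2, the third HIF prolyl hydroxylase, differed from Egln1 and Egln3 in having a region found in all tissues. Its peaks were number 213 in liver (score 135), 373 in kidney (76) and 222 in heart (80), centred 12, 2 and 16 bp upstream of a start site, with a CACGTG overlapping that start site. Cited2, which competes with HIF for the coactivators p300 and CBP, had a region at numbers 352, 278 and 184, all near 7% of their lists (scores 111, 87 and 88). Ldha encodes the lactate dehydrogenase subunit of anaerobic glycolysis. Its region was number 256 in liver, 604 in kidney and 259 in heart (scores 124, 60 and 74), centred 25 to 46 bp upstream of a start site. The bases common to the 3 peaks and upstream of the start site are printed for Cited2 (chr10:17722995-17723160, plus strand) and Ldha (chr7:46845674-46845803, plus strand), since each, like Bnip3 and Hif1a, holds 1 CACGTG (in capitals). The Ldha stretch also holds a separate ACGTG on the other strand, 34 bp upstream of the start site. A second CACGTG near Ldha lies outside the stretch, in the liver peak only.
Cited2: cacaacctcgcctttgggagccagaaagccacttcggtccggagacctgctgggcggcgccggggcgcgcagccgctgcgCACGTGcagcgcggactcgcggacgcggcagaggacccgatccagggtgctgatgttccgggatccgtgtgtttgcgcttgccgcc
Ldha: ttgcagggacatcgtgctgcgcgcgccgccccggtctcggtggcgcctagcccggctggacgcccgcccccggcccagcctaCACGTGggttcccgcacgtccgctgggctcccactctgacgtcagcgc

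Pfkl, the liver-type phosphofructokinase, had peaks in all lists but no region common to all. Liver (number 98, score 165) and kidney (number 373, score 76) shared a site inside the gene, while the higher-ranked of 2 heart peaks (number 189, score 87) lay closer to the start site, 92 bp downstream of it against 415 bp for the liver centre. The other heart peak (number 2215, score 16) was 5.88 kb upstream, and a second kidney peak (number 1155, score 41) lay nearest to Cfap410. Ankrd37, a small HIF-induced gene, had a region in liver (number 583, score 90) and kidney (number 1198, score 40). Pdk1, whose kinase restrains the entry of pyruvate into the citric acid cycle, had 2 liver and 2 kidney peaks with no shared site, the best at 15.5% of the liver list. One of its kidney peaks, 9.54 kb from the gene, lay nearest to Itga6. A peak in at least 1 list was found at 24 of the 40 genes, against 30.7% of all protein-coding genes. No peak was listed at the other 16: Hif1an, Cul2, Elob, Eloc, Ep300, Hk2, Pfkfb4, Slc16a3, Epo, Adm, Tfrc, Flt1, Kdr, Edn1, P4ha1 and Kdm3a. An empty entry means only that no peak of the deposited lists met the rule, since read depth and calling thresholds are unknown.

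Genes with the most similar pattern were sought by the distance between their best rank percentages in the 3 lists, over 951 protein-coding genes with a peak in each list. For Bnip3 these were Kdm6b and Dnah2, which had the same 3 values (0.977, 0.818 and 1.43% in liver, kidney and heart), and Bhlhe41 (0.914, 0.843 and 1.11%). For Hif1a they were Dgat2 (2.97, 2.6 and 2.86%), and Pheta2 and Smdt1, which again had the same values (3.82, 2.75 and 3.29%). A peak counts for every gene within 10 kb, so genes with equal values may be counted through the same peaks, which was not tested. The distances were 0.375 to 0.385 percentage points for Bnip3 and 0.667 to 0.692 for Hif1a, over 3 lists.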

How the data were processed

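Per the labels, the authors pooled the ChIP replicates and the input replicates of a tissue into a single peak list. The submitters' processing notes name Bowtie2, SAMtools, HOMER and mm10, with no roles. Each deposited list gives a position and a whole-number score, of a scale not given in the sources used here. Peaks were 242 bp wide in liver, 188 in kidney and 198 in heart.

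Gene spans and start windows came from RefSeq tables of GRCm38.p6, the assembly that mm10 names. All 9 genes and all 40 pathway genes matched a symbol. Ranks give tied scores the best rank, and rank percentages divide by list length. Peaks overlapping by 1 bp or more were merged. Letters were searched on both strands. The steps were tested on simulated data and run in Python 3.11.15 with pandas 2.3.3. No significance test was made, since there is no value per animal. Exons and introns were not analysed here.

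The 9 genes, the pathway list, the naming rule and the alternatives were chosen with earlier results of these data known. Named were the 9 genes, the 8 pathway genes with the best rank percentage in any list, those with a region in all tissues, the 3 genes nearest in pattern to each of 2 members, and genes sharing a site with a member. The full list of pathway genes without a peak is also given. Some neighbouring genes at pathway sites are named as well.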

Additional observations from a re-analysis of the deposited data

How the results depend on the processing

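Across 14 counts and medians, 85 alternative values were computed, and 68 stayed within 1.5 times the reported value. Counting only peaks inside a gene left 3 kidney peaks at 3 members (8 at 6 reported), 1 region found in all tissues (at Hif1a; the Bnip3 centres lie outside that gene), 7 regions in 1 tissue, a median heart rank of 38.5%, and 5, 9 and 6 other pathway genes in liver, kidney and heart. Within 50 kb there were 14 liver peaks and 20 regions in 1 tissue, with median ranks of 49.7% in kidney and 33.6% in heart. Within 5 kb, and where a peak had to be nearest to the member, the kidney median was 11%. The upper 50% of each list by score left 5 kidney peaks and 6 regions in 1 tissue (11 reported), and taking the top 2519 peaks of each list left 7 regions in 1 tissue. Requiring 50% overlap, or joining centres within 1000 bp, left the counts of shared regions within 1.5 times. Joining centres left 10 regions in 1 tissue (11 reported). By that rule the high-ranked kidney peak at Ndrg1 is no longer kidney-only, as its centre is 893 bp from the liver centre. Among the pathway genes, the liver, kidney and heart peaks of Pfkl nearest its start site also lie within 1000 bp. The same holds for a liver and a kidney peak of Pdk1, so both genes would have shared sites by that rule. The alternative of a longer sequence window was not run, since no genome was used here. No paired analysis was possible because each tissue has 1 list made from all its replicates, so no replicate could be left out either. Depth is unknown, so a missing peak is no measure of absent binding.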
